A study of Oryza sativa with 12 samples.

Results

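Isolated H2A.Z regions are stretches of the rice chromosome arms that carried the histone variant H2A.Z with no other H2A.Z region near them. They were chosen by their H2A.Z peaks. The peaks of the 4 H2A.Z libraries were merged into 53017 regions, and a region was kept if each of the 4 had a peak in it and if it lay 15 kb or more from the next merged region on both sides. Chromosomes 4 and 10 and 3 Mb on either side of each centromere position were left out. The rule kept 164 of the 29354 arm regions that had peaks in all 4 libraries, and of 38145 such regions in the genome. The other 29190 arm regions with a peak in all 4 libraries are called the other arm regions. A further 100 arm regions were as isolated but had a peak in fewer than 4 libraries, and 5 regions at chromosome ends, with no neighbour on one side, were not counted.

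H2A.Z replaces the core histone H2A in some nucleosomes. In plants it is known from the first nucleosomes of genes, near the transcription start, and from the bodies of genes that respond to the environment or to development. It reaches chromatin as a dimer with H2B, which is escorted by histone chaperones and put in place by remodelling complexes. OsChz1 is a rice chaperone with a CHZ domain that binds H2A-H2B and H2A.Z-H2B dimers, and the study asked what its loss does to H2A.Z on chromatin.

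The libraries were made from whole seedlings, 30 days old and grown in long days, of the oschz1 mutant and of NIP, the unmutated rice that served as wild type. The labels name the mutant only as oschz1. By the study's methods its mutants were made by genome editing of OsChz1 and carry a premature stop codon. The study's text names the allele profiled for H2A.Z and H3, which has the shorter deletion of its alleles. Each genotype had 2 H2A.Z libraries, 2 libraries for the core histone H3 and 2 inputs, which are chromatin sequenced without an antibody. Whole seedlings mix many cell types, so a site marked in fewer cells and a site with less H2A.Z in each cell cannot be told apart. The peak tables hold no measure of OsChz1 itself, so the genotype could not be checked in them.

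Reads inside H2A.Z peaks numbered 20072324 and 18569241 in oschz1, against 22192417 and 16886473 in NIP. Reads inside H3 peaks numbered 14466571 and 9179714 in oschz1, against 13961812 and 9985812 in NIP. Peaks of the same extent in the H2A.Z and the H3 library of one genotype and replicate number had equal input reads in every case, over 3032 to 3820 such peaks in the 4 pairs. Each input had thus served both antibodies, and a low input read count raises the H2A.Z and the H3 enrichment of a site together. Positions are on release 7 of the MSU rice genome and count from 1.

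The isolated regions lay toward the centromeric ends of the arms. The middle of an isolated region was a median of 5.63 Mb from the centromere position, against 10.9 Mb for the other arm regions. Between 3 and 5 Mb from that position lay 68 of the 164 isolated regions (41.5%), against 2700 (9.25%) of the other arm regions. From 5 to 10 Mb the counts were 69 isolated regions (42.1%) and 9807 (33.6%) of the others, and beyond 10 Mb they were 27 (16.5%) and 16683 (57.2%). These distance classes differ in length, and the rule itself used the spacing of regions. As a description, isolated regions made up a smaller part of the arm regions farther from the centromere position.

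Their number also differed between chromosomes. Chromosome 12 held 30 isolated regions, or 13.9 per 10 Mb of arm, and chromosome 11 held 28, or 12.2 per 10 Mb. Chromosome 3 had 8, or 2.63 per 10 Mb, and chromosome 1 had 11, or 2.95 per 10 Mb. The chromosomes with many isolated regions were mostly those with a thin cover of H2A.Z regions. The density of merged regions was 128 per Mb of arm on chromosome 12 and 138 per Mb on chromosome 11, against 186 per Mb on chromosome 3 and 176 per Mb on chromosome 1. Chromosome 9 stood off this order, with 16 isolated regions, or 9.34 per 10 Mb, at 163 merged regions per Mb. The rule itself used the spacing of regions, so these counts are a description.

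**Figure D1:**
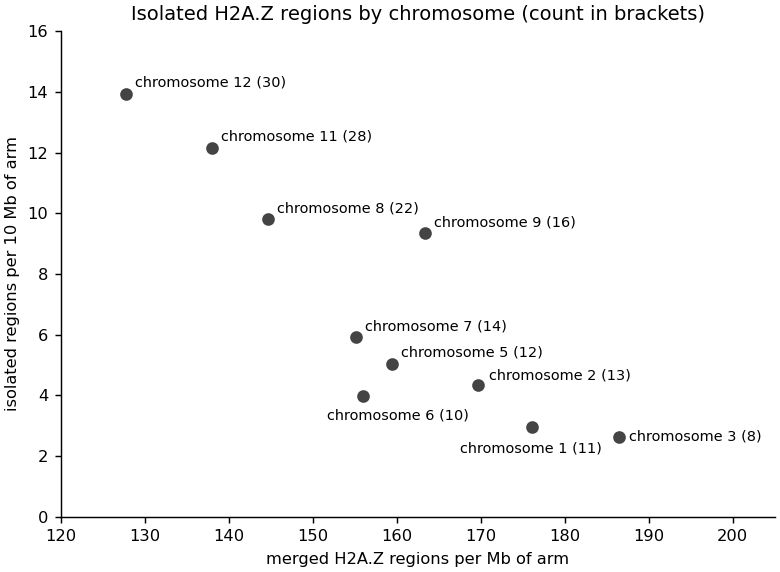
Isolated H2A.Z regions per 10 Mb of chromosome arm (vertical axis) against merged H2A.Z regions per Mb of the same arms (horizontal axis), one point per chromosome with its count of isolated regions in brackets. Chromosomes 12 and 11 lie highest, at 13.9 and 12.2 per 10 Mb, and chromosomes 3 and 1 lowest, at 2.63 and 2.95 per 10 Mb.

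The distance to the nearer neighbour had a median of 19 kb and was at least 20 kb for 75 regions, at least 30 kb for 19 and at least 50 kb for 2. Both of those lay on chromosome 8 and were each other's neighbours, 117.8 kb apart. The more isolated of them, chr8:6554001-6555000, had its other neighbour 156.2 kb away. Its H2A.Z peak covered 1000 bp in both oschz1 libraries and 600 bp in both NIP libraries. Its enrichment over input was 1.89 and 2.36 in oschz1, against 2.34 and 2.51 in NIP, so the lower NIP library lay under the higher oschz1 library. It carried no H3 peak in any of the 4 H3 libraries. Enrichment here is the number of ChIP reads over the number of input reads in the same peaks, with the input scaled to the size of the ChIP library.

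Its partner, chr8:6432401-6436200, was a wide region. It held 64.0 and 65.6 reads per 1000000 reads in H2A.Z peaks (RPM) in oschz1, against 63.1 and 64.6 RPM in NIP. The 4 libraries agreed within 3 RPM, and an H3 peak touched the region in all 4 H3 libraries. The next most isolated region, chr7:15130001-15130600, with neighbours at 72.6 and 47.2 kb, had the same 600 bp peak in all 4 libraries and 11.6 and 11.7 RPM in oschz1, against 11.2 and 13.9 RPM in NIP.

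Most neighbours were seen in every library. Of the 328 sides of the 164 regions, 217 (66.2%) faced a region with a peak in all 4 libraries, against 72.1% of all arm regions that had one, and 40 (12.2%) faced a region seen in 1 library. The next region was itself isolated for 33 of the 164. Just inside the limit, with 15 kb to the nearer neighbour, were 6 regions, of which the first 3 by position were chr1:41628801-41631600, chr6:9937801-9940000 and chr11:18608001-18609600, with mean enrichments of 2.3, 2.88 and 3.11. Just outside it, at 14.8 kb, were 8 regions, among them chr2:2902801-2903600, chr2:3909401-3910000 and chr6:9634201-9635600, with mean enrichments of 1.22, 2.15 and 3.12.

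The isolated regions were somewhat narrower than the rest. Their median width was 1200 bp, with quartiles of 800 and 1800 bp, against 1400 bp with quartiles of 1000 and 2400 bp for the other arm regions. At most 600 bp wide were 28 isolated regions (17.1%) and 10.4% of the other arm regions, and at least 4000 bp wide were 3 (1.83%) and 8.34%. Most were a single block, since 8 of the 164 (4.88%) were made of more than 1 peak in any library, against 15.6% of the other arm regions. A peak in all 4 libraries was found for 62.1% of all 264 isolated arm regions and for 72.1% of all arm regions. Width and reproducibility come from the peaks that chose the regions and carry no test.

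The widest isolated region was chr1:25186801-25193600, 6800 bp long, which stood apart from the others in read number as well. It held 3299 and 3198 H2A.Z reads in oschz1 (164 and 172 RPM), against 3735 and 3026 reads in NIP (168 and 179 RPM). The groups overlapped. The next widest were chr11:26027601-26032600, of 5000 bp, and chr9:8376001-8380400, of 4400 bp, which is taken up again below because its reads rose in oschz1. The narrowest was chr12:8536401-8536600, a single window of 200 bp with 84 and 83 reads in oschz1 and 82 and 59 in NIP. It was followed by chr1:19832601-19833000 and chr8:18049201-18049600, of 400 bp each, a width that 4 isolated regions had. The peaks of all 3 narrow regions named had the same edges in all 4 libraries.

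The level of H2A.Z in the isolated regions was close to that elsewhere on the arms. Over all 164 regions together, enrichment was 2.24 and 2.24 in oschz1, against 2.33 and 2.44 in NIP. The other arm regions had 2.18 and 2.15 in oschz1, against 2.32 and 2.32 in NIP. Mean enrichment over the 4 libraries ranged from 1.26 to 4.71 among single isolated regions, with a median of 2.27 against 2.19 for the other arm regions. It was 3 or more in 18 isolated regions (11.0%) and in 8.24% of the others. Isolated regions covered 0.308% to 0.319% of the length of all H2A.Z peaks in a library and held 0.346% to 0.350% of the reads in them.

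**Figure D2:**
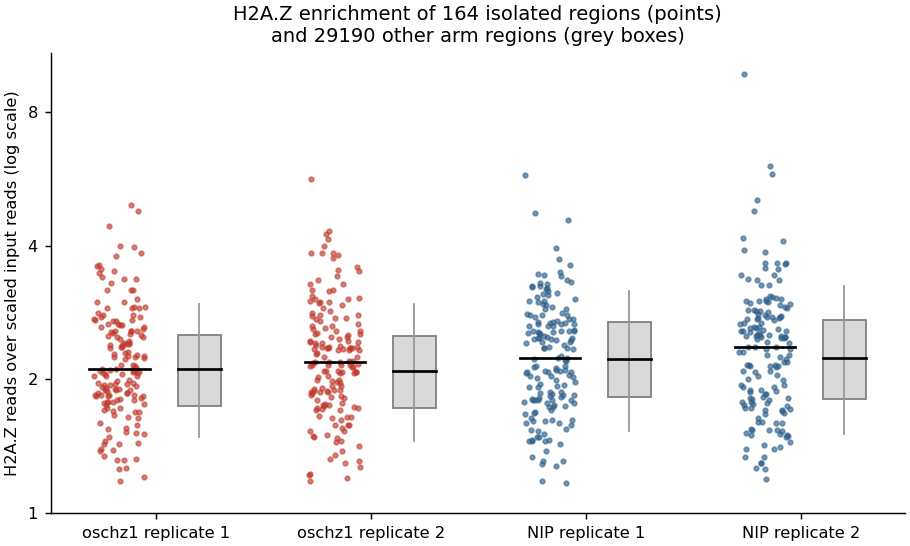
H2A.Z reads over scaled input reads (log axis) in the 164 isolated regions, one point per region, with the median as a black line, for the 2 oschz1 and the 2 NIP libraries. Grey boxes give the quartiles and median, and grey lines the 10th to 90th percentile, of the 29190 other arm regions; the median of the isolated regions is 2.11 and 2.19 in oschz1 and 2.23 and 2.36 in NIP, within the grey box of each library.

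Several of the highest enrichments came with few input reads in 1 or more libraries. The region with the highest mean, chr8:19293801-19294600, had an enrichment of 3.40 and 5.65 in oschz1, against 4.73 and 5.07 in NIP. Its input reads numbered 29 and 17 in oschz1 and 20 and 21 in NIP. In chr8:4832001-4832800 the enrichment was 1.92 and 2.17 in oschz1, against 2.55 and 9.76 in NIP, and the last value came from 10 input reads where the other 3 libraries had 42 to 51. Its H2A.Z level was 11.6 and 11.7 RPM in oschz1, against 13.9 and 13.9 RPM in NIP. The third and the fifth by mean enrichment, chr9:6485601-6486000 and chr12:5986801-5987600, also had their highest value in NIP replicate 2, at 5.82 with 10 input reads and at 6.04 with 19. In the fourth, chr11:15049401-15050400, both NIP libraries were above both oschz1 libraries, with 2.99 and 3.01 in oschz1 and 4.58 and 4.1 in NIP. Its input reads numbered 65 and 57 in oschz1, against 46 and 45 in NIP.

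Between the genotypes, the isolated regions as a set had a lower enrichment in oschz1. It averaged 2.24 ± 0.00169 in oschz1 and 2.38 ± 0.0733 in NIP (SD, n = 2 each), a difference of -0.140, or -5.88%. Both oschz1 libraries were below both NIP libraries. The two-sided exact permutation p was 0.333, which is the smallest that 2 libraries against 2 can give, so such a test cannot pass 0.05. In the 40 isolated regions whose peaks had the same edges in all 4 libraries, enrichment was 2.43 and 2.44 in oschz1, against 2.57 and 2.66 in NIP.

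The other arm regions were lower in oschz1 as well. Within each library, the log2 enrichment of the isolated regions exceeded that of the other arm regions by 0.04 and 0.06 in oschz1, against 0.01 and 0.07 in NIP. The oschz1 values lay between the NIP values, and the two-sided exact permutation p was 1.0 (n = 2 each). Without NIP replicate 1 the difference between the genotypes turned from 0.01 to -0.02 on the log2 scale. With the median of single regions in place of the ratio of sums it was -0.01.

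Single isolated regions differed in both directions. Both oschz1 libraries were below both NIP libraries in enrichment for 41 of the 164 (25%), against 26.6% of all 38145 regions. Both were above for 27 (16.5%), against 11.0% of all regions. The median log2 change in enrichment was -0.07 for the isolated regions and -0.09 for the other arm regions, and it was below 0 in 56.1% and 63.4% of them.

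The length covered by H2A.Z peaks within the isolated regions moved the other way. It was 213.2 and 212.4 kb in oschz1, against 208.8 and 204.2 kb in NIP. That is 212.8 ± 0.566 kb in oschz1 and 206.5 ± 3.25 kb in NIP (SD, n = 2 each), and the exact permutation p (two-sided) was 0.333. The other arm regions also had more covered length in oschz1, at 49291.6 and 48873 kb, against 47599.6 and 46660.4 kb in NIP. Isolated regions made up 0.308% and 0.311% of all covered length in oschz1, against 0.314% and 0.319% in NIP. In 25 isolated regions (15.2%, against 11.3% of all 38145 regions) the cover was longer in each oschz1 library than in either NIP library. In 13 isolated regions (7.93%, against 5.06%) it was shorter. Keeping only peaks whose fold was 2 or more turned the difference round, and the same isolated regions then had 10.3 kb less covered length in oschz1. Peaks thus covered more of these regions in oschz1 while holding fewer reads over input, in the libraries as deposited.

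Read numbers were tested region by region with edgeR's quasi-likelihood test across all 38145 regions. At a p of 0.05 or less after Benjamini-Hochberg adjustment, 2 of the 164 isolated regions (1.22%) rose in oschz1, against 0.731% of all regions, and 0 fell, against 0.0760%. At an unadjusted p under 0.05 there were 15 higher regions (9.15%, against 5.87% of all) and 10 lower ones (6.10%, against 6.49%). The median log2 change was -0.01 in the isolated regions and -0.02 in all regions, and single values ranged from -0.90 to 1.31. DESeq2 called 6 higher (3.66%, against 1.86% of all regions) and 1 lower (0.610%, against 0.309%). The counts hold only reads inside a library's own peaks, so a longer peak adds reads. Regions with a peak in fewer than 4 libraries were not tested, among them any that lost or gained the peak in oschz1. The 100 arm regions that were as isolated but had fewer peaks are thus in none of these genotype comparisons.

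The first of the called regions was chr11:8410401-8411600, with neighbours at 25 and 25.2 kb. It held 442 and 367 H2A.Z reads in oschz1 (22.0 and 19.8 RPM), against 174 and 153 reads in NIP (7.84 and 9.06 RPM). The mean was 20.9 ± 1.60 RPM in oschz1 and 8.45 ± 0.863 RPM in NIP (SD, n = 2 each), a log2 change of 1.31 ± 0.15 (SE) with an edgeR adjusted p of 0.00986. The groups did not overlap in reads. The peak was 1200 bp long in both oschz1 libraries and 800 bp in both NIP libraries. Enrichment was 2.71 and 3.85 in oschz1, against 1.82 and 2.76 in NIP, and there the groups overlapped. The call was lost with the covered length as an offset (adjusted p = 0.231) and on the ratio to input with limma (adjusted p = 0.775). An H3 peak touched it in all 4 H3 libraries.

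The second was chr9:8376001-8380400, one of the 3 widest isolated regions. It held 835 and 722 H2A.Z reads in oschz1 (41.6 and 38.9 RPM), against 548 and 331 reads in NIP (24.7 and 19.6 RPM). The mean was 40.2 ± 1.92 RPM in oschz1 and 22.1 ± 3.60 RPM in NIP (SD, n = 2 each), a log2 change of 0.85 ± 0.12 (SE) with an edgeR adjusted p of 0.0213. The peak covered all 4400 bp in both oschz1 libraries, against 2800 bp in 2 blocks and 2200 bp in the NIP libraries. Enrichment was low but did not overlap, at 1.77 and 1.76 in oschz1, against 1.48 and 1.45 in NIP. The call was lost without oschz1 replicate 1 (adjusted p = 0.0680), with the covered length as an offset (adjusted p = 0.905) and on the ratio to input with limma (adjusted p = 0.815). An H3 peak touched it only in oschz1 replicate 2.

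**Figure D3:**
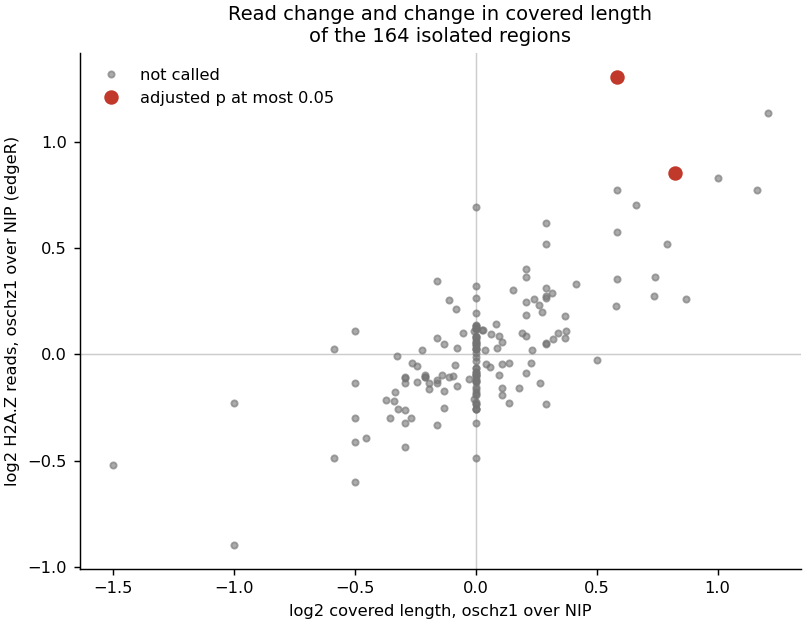
Log2 change in H2A.Z reads between oschz1 and NIP (vertical axis, edgeR) against the log2 change in the length covered by H2A.Z peaks (horizontal axis) for the 164 isolated regions. The red points are the called regions, at 1.31 and 0.85 in reads, and both lie at longer covered length in oschz1, by 0.58 and 0.83.

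Where the peaks had the same edges in all 4 libraries, a longer peak could not add reads. Of 7107 such regions in the genome, edgeR called 0.352% higher and 4.0% lower in oschz1, and of the 40 isolated ones it called 2 higher (5.0%) and 2 lower (5.0%). With the library size recovered from the fold column it called 5 of the 40 lower (12.5%, against 12.2%) and 2 higher (5.0%, against 0.295%). Where the peaks of all 4 libraries had 80% or more of the region in common, 2 of 74 isolated ones were lower (2.70%, against 2.72%) and 3 higher (4.05%, against 0.703%). The 4 regions of the same edges called first are named because they were few, after their values were seen. In chr11:20239201-20240000 there were 220 and 210 reads in oschz1, against 154 and 115 in NIP (log2 change 0.69, adjusted p = 0.000216). Its enrichment was only 1.43 and 1.22 in oschz1, against 1.18 and 1.19 in NIP. In chr11:8247001-8248400 there were 518 and 491 reads in oschz1, against 465 and 352 in NIP (log2 change 0.32, adjusted p = 0.0122). Neither was called over all regions.

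Both lower regions had a lower RPM in each oschz1 library than in either NIP library, but neither of them was called over all regions. In chr11:6147801-6148400, with neighbours at 44.2 and 49.0 kb, there were 195 and 173 reads in oschz1, against 308 and 216 in NIP (log2 change -0.49, adjusted p = 0.00654). Its enrichment was 1.75 and 1.73 in oschz1, against 2.23 and 2.56 in NIP, and H3 covered all 600 bp of it in every H3 library. In chr12:15103401-15104800 there were 673 and 596 reads in oschz1, against 873 and 661 in NIP (log2 change -0.26, adjusted p = 0.0152), and its enrichment overlapped between the groups, at 2.79 and 3.52 in oschz1 and 3.31 and 3.57 in NIP. On the ratio to input, tested with limma over all regions, 0 of the 164 isolated regions were called, as were 0.00% of all regions in either direction. At an unadjusted p under 0.05, 8 were higher (4.88%, against 1.65% of all regions) and 8 lower (4.88%, against 4.72%).

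Several of the largest changes in enrichment stood beside changed input reads or a changed extent of the peak. Among the regions with both oschz1 libraries above both NIP libraries, chr11:4891201-4893000 had the largest rise in ratio, at 0.88 on the log2 scale. Its enrichment was 2.92 and 4.26 in oschz1, against 2.04 and 1.78 in NIP. Its reads moved the other way, with 262 and 284 in oschz1 and 416 and 372 in NIP, and its peak was 600 bp long in both oschz1 libraries, against 1600 and 1800 bp in NIP. The next, chr2:24434601-24435200, had 144 and 117 reads in oschz1, against 104 and 73 in NIP, in peaks of 600 bp in oschz1 and 400 bp in NIP. In chr6:8576001-8576600, chr5:16752401-16753200 and chr8:7165801-7166400 the ratio was 0.81, 0.81 and 0.70 higher on the log2 scale. For chr8:7165801-7166400, 600 bp long in all libraries, the reads were 207 and 188 in oschz1, against 175 and 169 in NIP, and the input reads were 26 and 22 in oschz1, against 36 and 30 in NIP.

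Among the largest falls in ratio was chr9:9839601-9840200, also 600 bp in all libraries. Its enrichment was 1.53 and 1.31 in oschz1, against 2.94 and 2.61 in NIP, a log2 difference of -0.97. The H2A.Z reads were near equal, at 11.9 and 10.8 RPM in oschz1 and 11.0 and 11.5 RPM in NIP. The input reads were 66 and 64 in oschz1, against 33 and 31 in NIP. The other falls were chr8:4832001-4832800, chr7:18086601-18087200, chr12:15397401-15398400 and chr12:5986801-5987600, with log2 differences from -1.28 to -0.76. None of the regions with the largest changes in ratio was called by edgeR.

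H3, the core histone, was not used to choose the regions and gives an independent view of them, apart from the shared inputs. An H3 peak touched 96 and 90 of the 164 isolated regions in oschz1 (58.5% and 54.9%), against 91 and 87 in NIP (55.5% and 53.0%). The mean was 56.7 ± 2.59% in oschz1 and 54.3 ± 1.72% in NIP (SD, n = 2 each), and the exact permutation p (two-sided) was 0.667. The groups overlapped. An H3 peak was present in all 4 H3 libraries for 48 regions (29.3%), in 3 for 34, in 2 for 18, in 1 for 34 and in none for 30 (18.3%). Among the other arm regions 28.7% had an H3 peak in all 4 and 22.9% in none.

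The share of regions touched by H3 was compared with that of the other arm regions. It was 55.8% and 51.6% for the other arm regions in oschz1, and 56.7% and 53.0% in NIP. The isolated regions were higher in 3 of 4 H3 libraries, by 1.21 percentage points on average, with a two-sided exact sign-flip permutation p of 0.375 over the libraries. Since they were narrower, regions of 800 to 1800 bp were compared as well, 98 isolated and 15642 others. There the isolated regions were higher in 4 of 4 libraries, by 4.09 points, with an exact p of 0.125, the smallest that 4 libraries allow. In these and the following H3 comparisons, each library scored the same regions. The sign-flip p-values thus measure the spread between libraries and not that among regions.

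By length, H3 covered more of the isolated regions than of other places. H3 peaks covered 36.7% and 33.4% of their bases in oschz1, and 38.2% and 36.7% in NIP. In the other arm regions they covered 30.8% and 28.1% of the bases in oschz1, and 31.9% and 28.8% in NIP. The difference was positive in 4 of 4 libraries and averaged 6.32 points (exact sign-flip permutation p = 0.125). Arm regions with a gap of 15 kb or more on one side only were covered to 33.3% and 30.2% in oschz1, and to 35.2% and 30.7% in NIP, and the isolated regions exceeded them by 3.89 points, in 4 of 4 libraries (exact p = 0.125). H3 peaks over at least 50% of a region were likewise more frequent among the isolated regions, by 8.08 points in the mean (exact p = 0.125). The isolated regions were narrower, and neither the base cover nor this share was compared within a width class. The shares of bases covered were added after the data had been seen.

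H3 cover was lower outside the isolated regions. In the 15 kb on either side, which hold no H2A.Z peak of any library, H3 peaks covered 14.3% and 12.8% of the bases in oschz1, and 14.6% and 13.1% in NIP. That was 22.5 points below the regions themselves, in 4 of 4 libraries (exact sign-flip permutation p = 0.125). The drop was sharpest at the edge. The first kb from the edge was covered to 9.76% and 7.99% in oschz1, and to 7.62% and 7.01% in NIP, and the bins from 1 to 15 kb averaged 14.6% and 13.2% in oschz1, and 15.1% and 13.5% in NIP. The difference of 6.01 points between these bins and the first kb had the same sign in 4 of 4 libraries (exact p = 0.125).

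The flanks as a whole held more H3 than the arms did at large. H3 peaks covered 9.76% and 8.76% of the arm bases outside H2A.Z regions in oschz1, and 9.83% and 8.97% in NIP. The flanks exceeded that by 4.38 points, in 4 of 4 libraries (exact p = 0.125). For the first kb from the edge alone, the difference from these arm bases was -1.24 points, positive in 0 of 4 libraries (exact p = 0.125). These arm bases were not matched to the flanks in distance from a region's edge or from the centromere position. Flanks beside a long gap on one side only were nearly as high. In the 15 kb next to 2744 arm regions with such a gap on one side only, H3 covered 13.2% and 11.7% in oschz1, and 13.3% and 12.2% in NIP, and the flanks of the isolated regions were 1.12 points above that in the mean. Flanks of neighbouring isolated regions can overlap and were then counted for each. The part of the shared inputs in these H3 values was not tested.

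**Figure D4:**
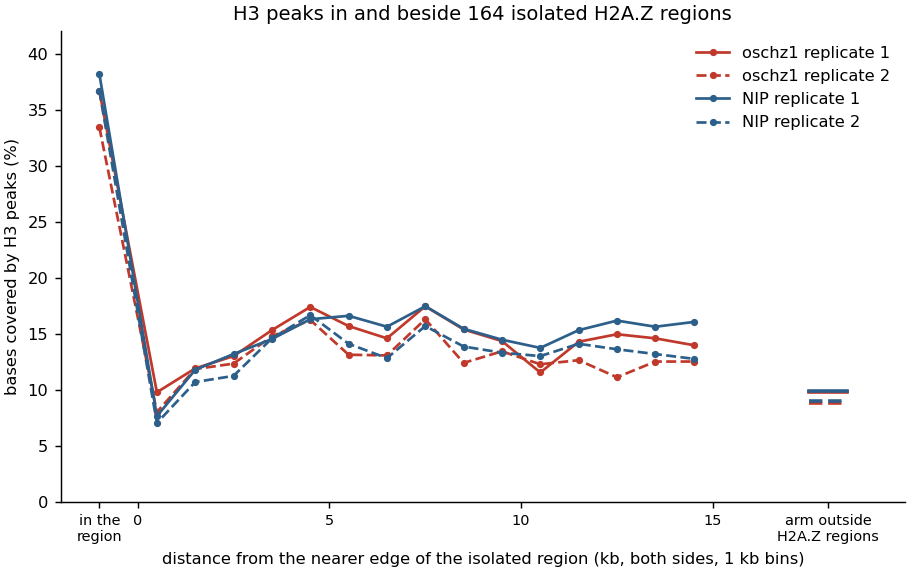
Percent of bases covered by H3 peaks in the 4 H3 libraries, within the 164 isolated regions (left), in 1 kb bins from their edges out to 15 kb on both sides (middle) and in all arm bases outside H2A.Z regions (short lines, right). Cover was 33.4% to 38.2% within the regions and 7.01% to 9.76% in the first kb, and the bars at the right lie at 8.76% to 9.83%.

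Isolated regions with H3 in more libraries also had more H2A.Z. The median H2A.Z enrichment was 2.04 in the 30 regions with no H3 peak, 2.14 with 1 H3 library, 2.15 with 2, 2.43 with 3 and 2.66 in the 48 regions with all 4. The other arm regions ran in the same order, at 1.92, 2.02, 2.14, 2.32 and 2.56. The median number of input reads per kb was 45.9 in isolated regions without H3 and 58.6 in those with H3 in all 4 libraries. H2A.Z itself had medians of 10.6 and 18.6 RPM per kb in the same sets. The median log2 change of H2A.Z enrichment in oschz1 was -0.07 in isolated regions without H3 and -0.06 in those with H3 in all 4 libraries. In the other arm regions it was -0.037 without H3 and -0.115 with H3 in all 4 libraries.

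Among the isolated regions with H3 in all 4 libraries, the highest mean H3 enrichment was that of chr3:23335001-23335600. It had an H3 enrichment of 1.40 and 3.37 in oschz1, against 1.60 and 2.70 in NIP. Both replicates numbered 2 were high and both numbered 1 low, so the genotypes overlapped. It was followed by chr2:9733601-9735200, chr6:9808401-9809000 and chr1:13396201-13397200, with means of 2.08, 2.05 and 1.81. The last of these was the steadiest, at 2.26 and 1.98 in oschz1, against 1.41 and 1.58 in NIP, where both oschz1 libraries were above both NIP libraries.

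With edgeR, no change in the amount of H3 was detected in H3 regions with a peak in all 4 H3 libraries. H3 regions seen in fewer libraries were not tested. Of 25169 H3 regions tested with edgeR, 0.00% were called higher and 0.00% lower in oschz1, so 0 of the 55 H3 regions that touch isolated H2A.Z regions were called. At an unadjusted p under 0.05, 3 of the 55 were higher, against 6.10% of all H3 regions, and 1 was lower, against 2.05%. DESeq2 called 1 of the 55 higher (1.82%, against 0.389% of all H3 regions) and 0 lower (against 0.302%). Their median log2 change was -0.01, against 0.06 over all H3 regions.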

How the data were processed

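ChIP-seq of H2A.Z and H3 in oschz1 and NIP rice seedlings gave 8 deposited peak tables, 1 for each library. Groups and replicate numbers came from the sample titles. The authors mapped the reads with Bowtie2 2.3.4.1 to the MSU release 7 genome and removed reads of mapping quality under 20 and duplicates with Samtools 1.9. H2A.Z peaks were called in each library against input with SICER 1.1 (windows and gaps of 200 bp, false discovery rate 0.05). The caller used on H3, whose tables are laid out alike, is not given in the sources used here. The deposited tables give, per peak, a ChIP read count and an input read count, without normalization. They also hold the authors' p-value and q-value (false discovery rate), and the authors' fold, the ratio of ChIP to input after scaling by library size. That scaling was recovered from the fold column and used for the enrichment. Reads outside peaks are not in these tables.

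The isolated regions, the lists and the tests were chosen with earlier results of these data known. Overlapping or touching peaks were merged and reads summed per region and library. Region counts were tested with edgeR 4.0.16 in R 4.3.3 (quasi-likelihood, library size the reads in all peaks, no further factors) and Benjamini-Hochberg adjustment at 0.05. DESeq2 1.42.0, limma 3.58.1 on the log2 ratio to scaled input (pseudocount 0.5), TMM factors, other library sizes, stricter peaks, other distances, a replicate block and leaving out each library were alternatives. Library sizes from the study's read totals, the combined setting of the same extent with the recovered size, and the H3 cover of flanks were chosen after seeing the data. The edgeR fit was tested on simulated counts without differences in the extent of peaks, and the DESeq2 and limma fits were not tested in this way. Values per library were compared with two-sided exact permutation tests over libraries, and by sign-flips over the 4 H3 libraries. Both replicates are called biological by the study, and no label names a batch. Read counts are from PCR libraries without molecular identifiers.

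The regions named were set by rule: the 3 most isolated, 3 widest, 3 narrowest, 5 with the highest mean enrichment, 4 with the highest H3 enrichment, all called regions, the 5 largest rises and 5 largest falls in ratio with groups that do not overlap, and 3 on each side of the distance limit. Python 3.11.15, numpy 2.4.6, pandas 2.3.3 and matplotlib 3.10.9 were used. Genes and sequences at the regions were planned but are not analysed here, because the gene table used was of another genome build.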

Additional observations from a re-analysis of the deposited data

How the results depend on the processing

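The number of isolated regions depended on the distance and on the window around the centromeres. It was 498 with 10 kb to the next region, 75 with 20 kb and 96 with 5 Mb left out around the centromeres, and 143 to 236 under the other definitions. Of the 211 regions found at a false discovery rate of 1e-10, 102 began at the same base as one of the 164. Of the 143 found at a fold of at least 2, 46 did. Regions that overlapped one of the 164 from another start were not counted in these matches. Isolated regions called higher in oschz1 numbered 6 with DESeq2, 0 on the ratio to input with limma and 0 with the covered length as an offset, and 1 to 3 without each replicate in turn. Those called lower numbered 1 with DESeq2, 2 in regions of which at least 80% was shared, 2 in regions of the same extent, 5 in the latter with the recovered library size, and 0 without any 1 replicate. For H3, DESeq2 called 1 higher, and 0 were called without any 1 replicate.

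The genotype difference in enrichment ranged from -0.192 to -0.0884 without each replicate. Relative to the other arm regions it was -0.0185 to 0.0466 without each replicate (log2), and -0.00781 with the median of single regions. The difference in covered length was 4.0 to 8.6 kb without each replicate and -10.3 kb for peaks with a fold of at least 2. The genotype difference in the share touched by H3 was -0.610 points for H3 peaks at a false discovery rate of 1e-10, -2.21 with 10 kb to the next region, and 0.610 to 4.27 without each replicate. The share against the other arm regions was 0.508 to 2.02 points without each replicate, 0.133 with 10 kb and 4.72 with 20 kb to the next region, and 3.34 for H3 peaks at a false discovery rate of 1e-10. The log2 read change of chr9:8376001-8380400 was 0.70 to 1.04 without each replicate, and that of chr11:8410401-8411600 was 1.21 to 1.41. The causes of these shifts were not tested.

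Over regions, deviations of libraries with the same replicate number were not related (correlation -0.0112 for H2A.Z and -0.00113 for H3), so the numbers were not taken as pairs. The reads were scaled by library first, so this correlation does not see differences between whole libraries. Reads inside H3 peaks were more numerous in both libraries numbered 1. The share touched by H3 was higher in oschz1 within each number, at 58.5% against 55.5% and 54.9% against 53.0%. With a replicate block the calls were 2 higher and 0 lower for H2A.Z and 0 for H3. Within numbers the enrichment differed by -0.0896 and -0.191, and the replicate block left the means at -0.140 for enrichment and 0.01 relative to the other arm regions. The narrowest region had 59 to 84 reads, and the SE of its log2 change was 0.24, against 0.12 for chr9:8376001-8380400.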
